A study of Caenorhabditis elegans with 8 samples.

Results

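Endogenous small RNAs were compared between rde-12 mutant and wild-type Caenorhabditis elegans that had eaten no RNA interference trigger. The comparison used 4 of the 8 libraries in the series and every gene in the deposited count table, 1937 genes in all. The mutant animals carried rde-12(hj41), a single allele of the gene for the DEAD-box helicase RDE-12, and the wild type was the standard laboratory strain N2. Both genotypes were grown from synchronised larvae for 50 h at 20 °C on OP50, the ordinary bacterial food, and were collected as young adults. Each library came from about 50000 whole animals pooled, with 2 libraries for each genotype that the labels describe as biological samples. All p-values per gene measure the spread between those libraries. Counts over the listed genes summed to 5563151 and 4354715 in the rde-12 libraries and to 4270098 and 4382256 in the N2 libraries. The counts hold no value for rde-12 itself, so the mutation was not checked here.

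Worms silence many of their own transcripts with small RNAs that RNA-dependent RNA polymerases copy from the target RNA. Some of these silencing RNAs follow a primary small RNA held by an Argonaute. ERGO-1 is such an Argonaute, and many of its known targets are duplicated genes and pseudogenes. RDE-12 acts after the primary Argonaute step, with the Argonaute RDE-1 in RNA interference and in the ERGO-1 pathway. Small RNAs of the WAGO class act further downstream, many of them in the germline. A count against a gene is therefore read here as the small RNAs that match it and not as its messenger RNA level. The counts do not separate primary small RNAs from those copied later, and the strand counted is not given.

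Small RNAs against a limited set of genes were strongly depleted in rde-12 animals, while rises were about as frequent and much smaller. In edgeR's quasi-likelihood test with Benjamini-Hochberg adjustment, 268 of 1931 genes tested were lower in rde-12 (13.9%) and 267 were higher (13.8%) at an adjusted p under 0.05. Falls over 2-fold numbered 65 (3.37%) and rises over 2-fold numbered 6 (0.311%). Over 4-fold there were 35 falls (1.81%), of which 6 were over 16-fold, whereas the largest rise was 3.64-fold. Between 1.5-fold and 2-fold there were 37 falls and 28 rises. The median log2 change of all genes tested was −0.02. Libraries of the genotypes did not overlap for 1240 genes (64.2%).

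The balance of falls and rises depended on how libraries were scaled. The main counts used TMM factors, which gave 49.9% rises among the calls. Library totals gave 221 falls and 333 rises (60.1% rises), and upper-quartile factors gave 202 falls and 370 rises (64.7% rises). The median log2 change moved by less than 0.1 under each scaling. With DESeq2, 157 genes were lower and 207 higher, and leaving out rde-12 replicate 1 gave 175 lower and 165 higher. The large falls were steadier, with 59 to 67 over 2-fold and 31 to 35 over 4-fold in the settings tried. All levels below are in CPM, counts scaled to the summed gene counts of a library and adjusted by TMM factors. They are shares of a selected set of genes, so a change in the total amount of small RNA per animal was not measured. In whole animals, fewer cells of a type and less RNA per cell cannot be told apart.

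**Figure D1:**
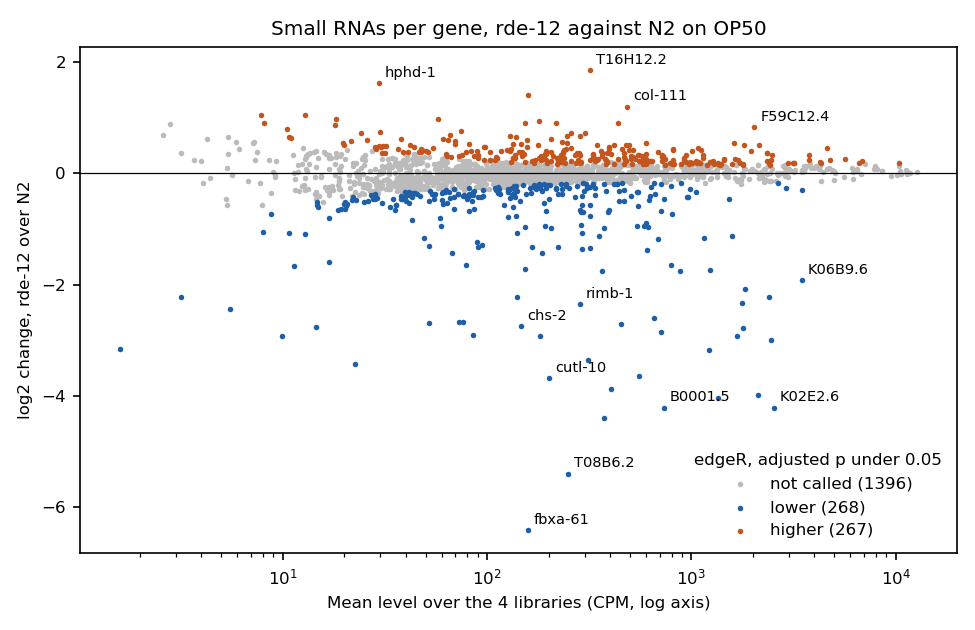
Each point is a gene, placed by its mean level over the 4 libraries (CPM, log axis) and its log2 change, rde-12 over N2. Blue points are the 268 genes lower in rde-12 and orange points the 267 higher ones (edgeR, adjusted p under 0.05). The falls reach −6.43 and occur at high and low levels, and the rises reach 1.86.

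The list of ERGO-1 targets, written from general knowledge and with earlier results of these data known, had 28 measured members. Of these, 27 were lower in rde-12 (96.4%, beside 13.9% of all genes). None was higher with edgeR, at an unadjusted p under 0.05 or with DESeq2, which called 26 lower. The median log2 change was −2.28 in the list, beside −0.02 over all genes tested. More than 4-fold falls were seen in 16 members (57.1%, beside 1.81% of all genes). Summed over the list, these small RNAs made up 0.917% and 0.901% of gene counts in the rde-12 libraries, against 4.76% and 4.66% in the N2 libraries. The share was 5.18-fold lower in rde-12 (0.909% ± 0.0110 against 4.71% ± 0.0760, SD, n = 2 each). With 2 libraries against 2, a two-sided exact permutation test can go no lower than the p = 0.33 it gave.

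Most ERGO-1 genes carried dense small RNA coverage in wild type, although Y116F11A.1, F39F10.4 and Y43F8B.9 lay below the median of all genes, at 11.4, 33.6 and 60.8 CPM per kilobase in N2. Per kilobase of exon, the median member held 332 CPM in rde-12 and 1897 CPM in N2, whereas the median of all 1896 genes with an annotated length was 87.9 CPM in rde-12 and 94.0 CPM in N2. The exon lengths come from Ensembl's WBcel235 annotation, which may differ from the one behind the counts. ZK380.5, a pseudogene, was the densest member in N2, at 1391 CPM per kilobase in rde-12 and 10645 in N2. Y17D7B.4, with a single annotated exon, held 555 CPM per kilobase in rde-12 and 8870 in N2. K06B9.6 kept the highest density of the list in the mutant, at 2268 CPM per kilobase in rde-12 against 8576 in N2.

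**Figure D2:**
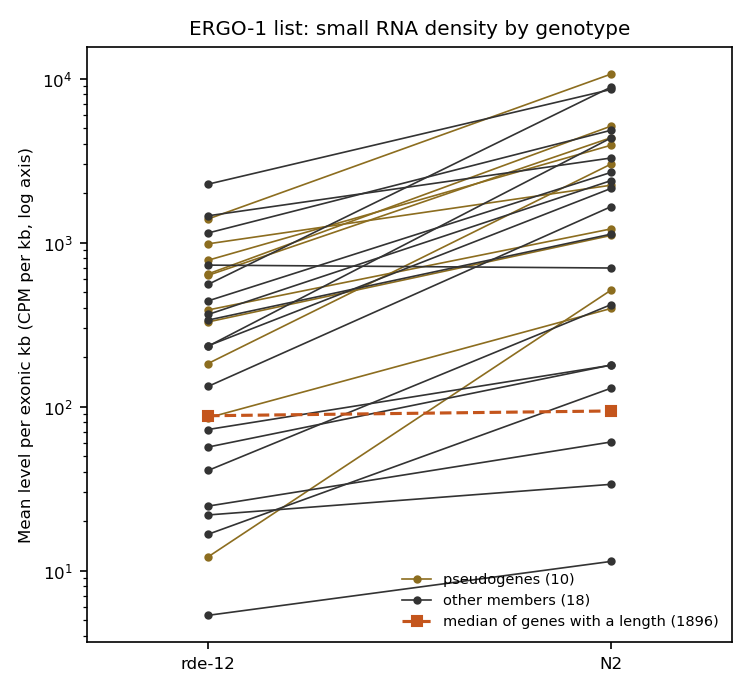
Each line joins the mean level of a gene of the ERGO-1 list per exonic kilobase in rde-12 (left) and in N2 (right), on a log axis, with pseudogenes in brown and the other members in black. The dashed orange line is the median of the 1896 genes with an annotated length, at 87.9 in rde-12 and 94.0 in N2. Apart from C18D4.6, at 728 and 699, every member lies lower in rde-12.

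In absolute terms the list supplied most of the largest losses. K02E2.6, a well-known target of the ERGO-1 pathway, had 269.9 and 246 CPM in rde-12, against 4915 and 4698 CPM in N2. It fell by 4548 CPM, the largest loss of any gene, with a log2 change of −4.22 ± 0.0706 (SE, edgeR adjusted p = 1.44e-16). K06B9.6 had 1515 and 1379 CPM in rde-12 and 5519 and 5424 CPM in N2, a 3.78-fold fall. Because its wild-type level was so high, at this moderate fold it fell by 4025 CPM, the next largest loss. The pseudogene ZK402.3 had 548 and 543 CPM in rde-12 and 4331 and 4364 CPM in N2, 7.97-fold lower in rde-12. Y17D7B.4 fell by 3742 CPM, and the pseudogenes W04B5.1, ZK380.5 and W04B5.2 fell by 2673 CPM, fell by 2582 CPM and fell by 2389 CPM. None of these genes had overlapping libraries, which also held for 64.2% of all genes and is nearly fixed by choosing the largest losses.

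Members of the list lost small RNAs to very different degrees. The deepest fall was that of the pseudogene T08B6.2, at 10.9 and 12.1 CPM in rde-12 against 507 and 466 CPM in N2, 42.5-fold lower. Y37E11B.2 had 246 and 237 CPM in rde-12, against 2234 and 2171 CPM in N2 (9.11-fold lower). F55C9.5 and F55C9.3, whose identifiers share a clone, fell 7.65-fold and 12.47-fold. At the shallow end, H09G03.1, annotated as a long non-coding RNA, had 730.3 and 684 CPM in rde-12, against 1606 and 1579 CPM in N2, a 2.25-fold fall. F39F10.4 had 28.5 and 24.6 CPM in rde-12 and 39.9 and 41.7 CPM in N2, 1.53-fold lower. C18D4.6 did not pass the test, with 1047 and 1040.0 CPM in rde-12 and 1034 and 969.6 CPM in N2 (log2 change 0.06, edgeR adjusted p = 0.482). Several members resemble each other or share a clone, and the sources used here do not say how reads matching several copies were counted, so the split of counts between copies is uncertain.

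Outside the ERGO-1 list, 19 genes also fell more than 4-fold. Membership was not compared with published target sets, so some of them may belong to the pathway. Y47H10A.5 had the largest absolute loss among them, with 884 and 799.7 CPM in rde-12 against 3938 and 3919 CPM in N2. That is 4.66-fold lower (log2 change −2.22 ± 0.0637, edgeR adjusted p = 6.49e-14). T28D6.4 had 37.4 and 29.04 CPM in rde-12 and 705 and 723 CPM in N2, 21.3-fold lower. B0001.5 had 74.3 and 75.3 CPM in rde-12 and 1406 and 1377 CPM in N2, 18.6-fold lower. F44E2.2, which has no entry in the annotation used here, had 164 and 181 CPM in rde-12 and 1217 and 1265 CPM in N2, 7.20-fold lower.

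Genes of structural, metabolic and neuronal function were among these falls. The cuticlin-like gene cutl-10 (Y53H1B.1), of the family that builds the cuticle, had 31.2 and 26.6 CPM in rde-12 and 377 and 372 CPM in N2 (12.9-fold lower). The chitin synthase gene chs-2 (F48A11.1) had 39.2 and 36.4 CPM in rde-12 and 254 and 253 CPM in N2, 6.69-fold lower with an edgeR adjusted p of 6.49e-14. Against rimb-1 (Y39A3CL.2), which encodes a RIM-binding protein of presynaptic active zones, there were 96.6 and 89.4 CPM in rde-12 and 472 and 479 CPM in N2, a 5.103-fold fall. With 20 annotated exons, rimb-1 had the most exons of the genes that fell more than 4-fold, where the median was 4 exons. Small RNAs also fell against gsto-3 (K10F12.4), an omega-class glutathione transferase gene, by 6.43-fold, and against asah-1 (K11D2.2), an acid ceramidase gene, by 6.41-fold. The long non-coding RNAs Y9D1A.1 and F31A9.2 fell 7.53-fold and 6.42-fold.

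A few of the deep falls rest on few counts. F11D11.12 had 3 counts summed over the rde-12 libraries and 25 over the N2 libraries, a ratio of library-scaled counts of 0.105 with an exact 95% interval of 0.0202 to 0.343 that covers counting error only. Its call ended without rde-12 replicate 1 (edgeR adjusted p = 0.123) and without rde-12 replicate 2 (0.0554). C11G6.2 stood at 1.45 and 0.670 CPM in rde-12 and 7.12 and 3.44 CPM in N2, and Y7A5A.8 at 1.997 and 1.34 CPM in rde-12 and 9.495 and 9.17 CPM in N2.

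**Figure D3:**
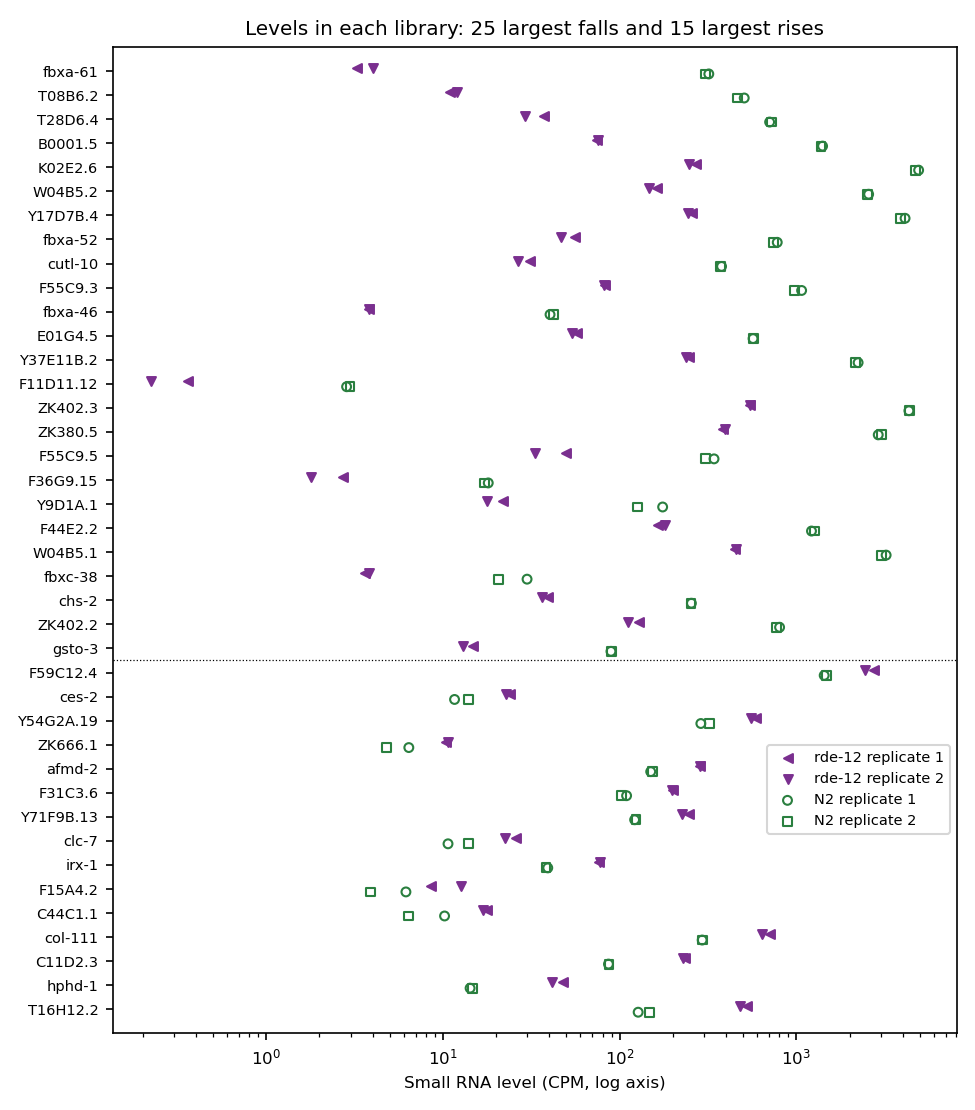
Small RNA level in each library (CPM, log axis) for the 25 genes with the largest falls, above the dotted line, and the 15 with the largest rises, below it. Filled purple triangles are rde-12 libraries and open green symbols are N2 libraries. By the way the genes were chosen the genotypes do not overlap, and the gap between them is widest for fbxa-61, at 3.27 and 4.02 CPM in rde-12 against 319 and 307 CPM in N2.

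F-box genes, which encode substrate adaptors of SCF ubiquitin ligases and form a very large worm family, moved in both directions. Of 54 measured members, 11 were lower in rde-12 (20.4%, beside 13.9% of all genes) and 8 were higher (14.8%, beside 13.8%), with a median log2 change of 0.00. The falls were far larger than the rises, and 4 members fell more than 4-fold (7.41%, beside 1.81% of all genes). Small RNAs against fbxa-61 (Y119D3B.8) nearly vanished, at 3.27 and 4.02 CPM in rde-12 against 319 and 307 CPM in N2. Its 86.2-fold fall was the largest of all genes tested (log2 change −6.43 ± 0.118, edgeR adjusted p = 2.92e-16). For fbxa-52 (F07G6.6) the levels were 55.9 and 46.5 CPM in rde-12 and 779 and 739 CPM in N2, a 14.7-fold fall. The pseudogenes fbxa-46 (F52D2.8) and fbxc-38 (C02B8.2) fell 10.8-fold and 6.76-fold from low levels, the first at 3.81 and 3.80 CPM in rde-12 against 40.4 and 42.4 CPM in N2.

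After those 4, the F-box changes were modest. The next was fbxa-24 (F54D10.2), with 419 and 416 CPM in rde-12 and 848 and 776 CPM in N2, 1.94-fold lower. The other falls ran from 1.79-fold for fbxc-37 (F31A9.4) down to 1.26-fold for fbxa-136 (C18D4.2). Rises reached 1.53-fold for fbxc-18 (C32B5.14) and 1.42-fold for fbxa-184 (F45C12.8). The most heavily targeted riser was the pseudogene fbxa-149 (Y38H6C.10), with 2794 and 2706 CPM in rde-12 and 2248 and 2125 CPM in N2, 1.26-fold higher. The number of F-box rises was 14 with upper-quartile factors, and it was 5 and 13 when rde-12 replicate 1 or replicate 2 was left out. Reads shared between similar F-box genes leave their separate counts uncertain.

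Falls between 2-fold and 4-fold included regulators of signalling. Small RNAs against saeg-1 (F53H10.2), a nuclear factor that acts with the cGMP-dependent kinase EGL-4, stood at 396.6 and 403.0 CPM in rde-12 and 1379 and 1326 CPM in N2. The fall was 3.38-fold (log2 change −1.76 ± 0.0575, edgeR adjusted p = 3.99e-13). Its partner saeg-2 (T23G5.6) had 7196 and 6878 CPM in rde-12 and 6251 and 6149 CPM in N2, 1.13-fold higher with an adjusted p of 0.0325. That call for saeg-2 ended without either N2 library (adjusted p = 0.131 and 0.302) and without rde-12 replicate 1 (0.134). The Axin gene pry-1 (C37A5.9), a negative regulator of Wnt signalling, had 194 and 182 CPM in rde-12 and 406 and 388 CPM in N2, a 2.11-fold fall.

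Channel, kinase and sperm genes were also in this range. For trp-4 (Y71A12B.4), a mechanosensory TRP channel gene, the levels were 344 and 329 CPM in rde-12 and 881 and 880.2 CPM in N2, 2.61-fold lower. The cyclin-dependent kinase gene cdk-14 (ZC123.4) had 155 and 173 CPM in rde-12 and 436 and 401 CPM in N2, 2.55-fold lower. Against spe-41 (K01A11.4), a TRP channel gene that sperm need for fertilisation, there were 183 and 181 CPM in rde-12 and 457 and 461 CPM in N2, 2.52-fold lower. These 3 genes had between 10 and 24 annotated exons.

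Among measured genes of the RNA interference machinery, themselves targets of small RNAs, 13 gave no call with edgeR. Over all genes tested, 1396 of 1931 gave none, so this does not set them apart. Of 65 listed factors, 15 were measured. With edgeR 2 were lower (13.3%, beside 13.9% of all genes) and with DESeq2 1 was. None was higher with edgeR, at an unadjusted p under 0.05 or with DESeq2, although leaving out N2 replicate 2 gave 1 rise, at vig-1. The median log2 change was −0.02, the same as over all genes. The fall at eri-12 (B0001.6), named for enhanced RNA interference, was clear, with 124 and 130.2 CPM in rde-12 against 331 and 309 CPM in N2. It was 2.51-fold lower (log2 change −1.33 ± 0.0655, edgeR adjusted p = 1.11e-10). The other fall was small and unsteady. The Argonaute gene alg-4 (ZK757.3) had 53.4 and 56.7 CPM in rde-12 and 74.5 and 64.2 CPM in N2 (log2 change −0.33, edgeR adjusted p = 0.0282). That call ended with DESeq2 (0.175), the replicate block (0.073), upper-quartile factors (0.0707) or library totals (0.0618). It also ended when N2 replicate 1 (0.311) or rde-12 replicate 1 (0.147) was left out.

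Other silencing factors did not pass the test. The germline Argonaute gene ppw-1 (C18E3.7) had 2253 and 2152 CPM in rde-12 and 2185 and 2159 CPM in N2 (log2 change 0.02, edgeR adjusted p = 0.82). For the polymerase gene rrf-2 (M01G12.12) the levels were 544 and 489 CPM in rde-12 and 547 and 553 CPM in N2. Nuclear silencing factors nrde-1 and nrde-4 had log2 changes of −0.02 and −0.09. Beside 13.9% of all genes lower and 13.8% higher with edgeR, 0 of 8 measured germ granule and germline genes were lower and 0 higher. DESeq2 gave no call either, and 1 member was higher at an unadjusted p under 0.05. The exception, glh-1 (T21G5.3), encodes a germ granule helicase of the Vasa type and stood at 1216 and 1180.0 CPM in rde-12 and 1035 and 1127 CPM in N2 (log2 change 0.15, edgeR adjusted p = 0.0759). The adjusted p was under the threshold with library totals (0.0173), robust edgeR (0.0483) or upper-quartile factors (0.0179), and when rde-12 replicate 2 was left out (0.0265). Another member, deps-1, was also called higher with upper-quartile factors, which gave 2 rises in the list, and when N2 replicate 2 was left out.

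The 4 measured targets of the WAGO pathway gave no call with edgeR, at an unadjusted p under 0.05 or with DESeq2. Their log2 changes lay between −0.05 and 0.07. Over all genes tested, 1396 of 1931 were not called by edgeR, so the lack of a call in 4 genes does not set them apart. Per kilobase of exon, the median WAGO target held 3847 CPM in rde-12 and 3740 CPM in N2, with N2 densities from 904 for C38D9.2 to 11662 for F37D6.3. F37D6.3 had 6700.0 and 6465 CPM in rde-12 and 6272 and 6417 CPM in N2.

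The most abundant small RNA targets differed little between genotypes. The 10 genes with the highest mean level held 11.5% and 11.4% of counts in the rde-12 libraries, against 10.96% and 10.8% in the N2 libraries. The means were 11.45% ± 0.0931 in rde-12 and 10.9% ± 0.101 in N2 (SD, n = 2 each, two-sided exact permutation p = 0.33, the smallest possible). The pseudogene F37H8.2 led them, with 13414 and 12318 CPM in rde-12 and 12592 and 12597 CPM in N2, and here the genotypes overlapped. ZC247.1 was the one called, at 11361 and 10701 CPM in rde-12 and 9431 and 10019 CPM in N2 (1.13-fold higher, edgeR adjusted p = 0.0474). That call ended with RLE factors (adjusted p = 0.061) and without N2 replicate 1 (0.331), N2 replicate 2 (0.193) or rde-12 replicate 1 (0.183). F15D4.5 passed the threshold with library totals (0.00714), with upper-quartile factors (0.0434) and when rde-12 replicate 2 was left out (0.0091).

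Gains were spread over many genes. The 267 genes called higher together held 37772 CPM more in rde-12 than in N2. The summed level of the 35 genes with falls over 4-fold fell by 38957 CPM. That of the genes with smaller falls decreased by 26814 CPM. The largest single gain was at the RNase H gene rnh-1.3 (C04F12.9), with 5468 and 5232 CPM in rde-12 against 3894 and 3935 CPM in N2. The rise was 1.37-fold (log2 change 0.45 ± 0.0584, edgeR adjusted p = 2.06e-05). F59C12.4 had 2741 and 2438 CPM in rde-12 and 1436 and 1474 CPM in N2, 1.78-fold higher. The growth factor gene pvf-1 (Y39A3CL.6) had 4252 and 4133 CPM in rde-12 and 3369 and 3320.0 CPM in N2, 1.254-fold higher.

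Several of the absolute gains were small in fold and less certain. The autophagy receptor gene sqst-1 (T12G3.1) was 1.17-fold higher, the transaminase gene got-1.2 (T01C8.5) 1.19-fold and the linker histone gene his-24 (M163.3) 1.20-fold. Without a library the call for sqst-1 ended in 3 of 4 cases (edgeR adjusted p = 0.0743, 0.194 and 0.09). For got-1.2 it also ended in 3 cases (0.0662, 0.0652 and 0.0622), and for his-24 without N2 replicate 2 (0.0603).

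The largest folds among the rises were measured at a wide range of levels. T16H12.2 had 524 and 477 CPM in rde-12 and 127 and 148 CPM in N2 (3.64-fold higher, log2 change 1.86 ± 0.0767, edgeR adjusted p = 1.02e-11). C11D2.3 had 234 and 228 CPM in rde-12 and 86.4 and 87.1 CPM in N2, 2.67-fold higher. The collagen gene col-111 (F29B9.9) had 709 and 642 CPM in rde-12 and 293 and 294 CPM in N2, 2.30-fold higher. Metabolic genes among the rises were hphd-1 (Y38F1A.6), of propionate breakdown, at 3.098-fold, the arylformamidase gene afmd-2 (Y45F10A.3) at 1.88-fold and the choline kinase gene ckb-4 (F22F7.5) at 1.65-fold.

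Genes for transcription regulators appeared among rises under 2-fold. The Iroquois homeobox gene irx-1 (C36F7.1) had 76.1 and 77.3 CPM in rde-12 and 39.2 and 38.3 CPM in N2, 1.98-fold higher (edgeR adjusted p = 1.61e-06). For ces-2 (ZK909.4), a bZIP factor in cell death specification, the levels were 24.0 and 22.8 CPM in rde-12 and 11.63 and 13.98 CPM in N2, 1.82-fold higher. The bZIP stress-response gene atf-4 (T04C10.4) had 368 and 338 CPM in rde-12 and 223 and 217 CPM in N2, 1.61-fold higher. Another bZIP gene, zip-2 (K02F3.4), had 2227 and 2035 CPM in rde-12 and 1477 and 1509 CPM in N2, 1.43-fold higher. In the opposite direction, the Distal-less homeobox gene ceh-43 (C28A5.4) had 57.2 and 50.7 CPM in rde-12 and 82.8 and 85.7 CPM in N2, 1.56-fold lower. Of 7 tested members of the list of homeobox and related factors, 2 were lower (28.6%, beside 13.9% of all genes) and 3 higher (42.9%, beside 13.8%). The count of falls was smaller without N2 replicate 1 or rde-12 replicate 2.

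Nuclear hormone receptor genes, whose products are ligand-regulated transcription factors, gave 3 rises among 18 measured (16.7%, beside 13.8% of all genes), with a median log2 change of 0.10. None was lower with edgeR or DESeq2, and 1 was lower at an unadjusted p under 0.05. The largest rise was nhr-58 (R11G11.2), with 189 and 188 CPM in rde-12 and 126 and 123 CPM in N2 (1.51-fold). Without rde-12 replicate 2, 5 were higher.

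A list gathered by name prefixes of channel and neuropeptide genes and by the phenotype prefixes unc-, egl- and osm- had 23 measured members. Of these, 7 were higher (30.4%, beside 13.8% of all genes) and 2 lower (8.70%, beside 13.9%). The phenotype prefixes cover genes of unlike function, among them unc-45, unc-60 and egl-9, so these shares do not describe a neuronal class. The median log2 change of the list was 0.09. The ciliary kinesin gene osm-3 (M02B7.3) had 1947 and 1876 CPM in rde-12 and 1310.0 and 1297 CPM in N2, 1.47-fold higher (edgeR adjusted p = 1.06e-06). The ryanodine receptor gene unc-68 (K11C4.5) rose 1.31-fold and the presynaptic RIM gene unc-10 (T10A3.1) 1.32-fold. Besides trp-4, the netrin receptor gene unc-40 (T19B4.7) fell 1.19-fold. The count of rises was 3 with DESeq2 or when N2 replicate 1 was left out, and 4 when rde-12 replicate 1 was.

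Genes named for sperm products gave 6 falls among 27 measured (22.2%, beside 13.9% of all genes). Their median log2 change was −0.24, beside −0.02 over all genes tested. None was higher with edgeR, at an unadjusted p under 0.05 or with DESeq2. Many sperm genes had low levels. Among all 483 genes with mean levels up to 62.94 CPM, the median log2 change was −0.10, with 15.5% lower and 8.08% higher. The part of level in the sperm values was not tested. Apart from spe-41, the sperm falls were at single-exon genes and small. They ran from 1.57-fold at nspd-5 (F11G11.8), with 14.2 and 15.0 CPM in rde-12 and 20.7 and 24.98 CPM in N2, to 1.22-fold at ssp-35 (F55C5.1). Both DESeq2 and the fit without N2 replicate 1 called 3 falls. The call for nspd-5 ended with DESeq2 (adjusted p = 0.108) and without N2 replicate 2 (0.0518) or rde-12 replicate 1 (0.0714).

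Other families held few measured members, and their counts stand beside 13.9% of all genes lower, 13.8% higher and 1396 of 1931 not called. Among 6 cuticle genes, cutl-10 was lower, by 12.9-fold, while col-111, col-71 and col-157 were higher, by 2.30-fold, 1.21-fold and 1.15-fold. BTB and MATH domain genes gave 2 falls and 1 rise among 18, all under 1.3-fold, and none of the falls was called when N2 replicate 1 was left out. The rises there numbered 0 without rde-12 replicate 1 and 5 with upper-quartile factors. Cell cycle and chromosome genes gave 1 fall (5.26%), at cdk-14, and 2 rises (10.5%) among 19, at klp-11 and the pseudogene klp-10. Those rises did not hold without N2 replicate 1 or rde-12 replicate 1. Kinase and phosphatase genes gave 1 fall among 5, at the pseudogene kin-31, histone genes 1 rise among 3 and ribosomal protein genes 1 rise among 2. Detoxification enzyme genes, taken by the prefixes cyp-, ugt- and gst-, gave 1 fall and 1 rise among 2. The glutathione transferase gene gsto-3, 6.43-fold lower, does not carry those prefixes and was not in that list. The counts of these lists were fragile. The kinase fall ended without rde-12 replicate 1 and the histone rise without N2 replicate 2, and both the ribosomal rise and the detoxification fall ended with DESeq2 and under other settings. Of 9 transporter genes, haf-4 (W04C9.1), a half-transporter gene of gut granules, rose 1.47-fold. Of 6 C-type lectin genes, clec-12 (T27F6.2) fell 1.44-fold, and 3 were lower without rde-12 replicate 2. The 4 chemoreceptor genes gave no call with edgeR, at an unadjusted p under 0.05 or with DESeq2. Listed genes of muscle numbered 21, of which act-2 alone was measured (1.14-fold lower, edgeR adjusted p = 0.0467, not called with DESeq2), and no gene of the intestine and yolk list was in the table.

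**Figure D4:**
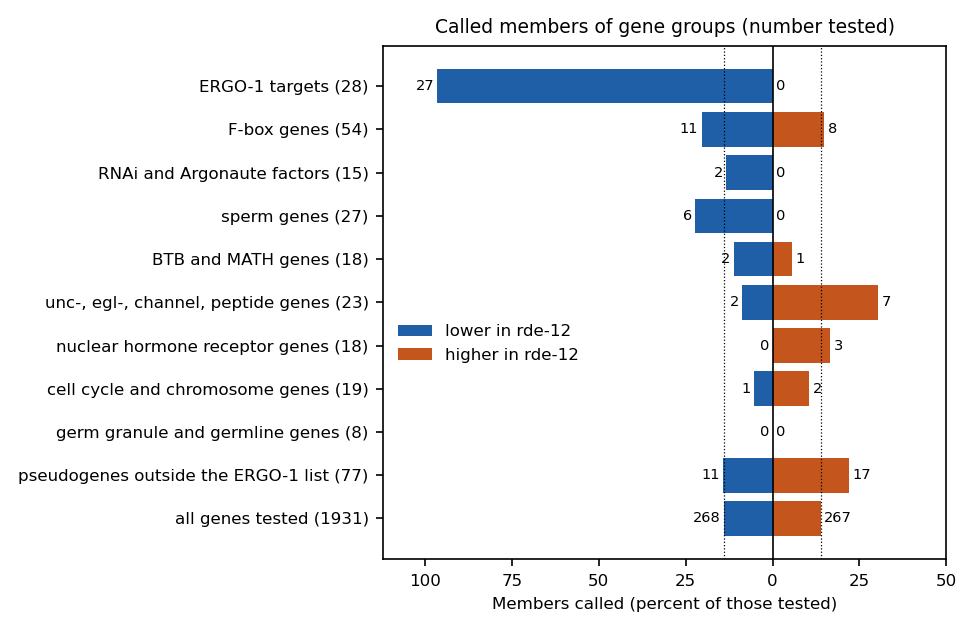
Share of tested members called lower (blue, left) and higher (orange, right) in rde-12, in percent, with the number called at the end of each bar and the number tested in brackets. Dotted lines mark the shares over all 1931 genes, 13.9% lower and 13.8% higher. The ERGO-1 list stands at 27 of 28 lower, and the germ granule genes at 0 of 8 in either direction.

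The annotation class of the genes was compared after their values had been seen, as a description. Of 87 measured pseudogenes, 21 were lower (24.1%, beside 13.9% of all genes) and 17 higher (19.5%, beside 13.8%). More than 4-fold falls were seen in 9 of them (10.3%, beside 1.81%). Among 1801 protein-coding genes, 238 were lower (13.2%) and 247 higher (13.7%), and 23 fell more than 4-fold (1.28%). Much of that gap came from the ERGO-1 list, whose 10 pseudogenes all fell, with a median log2 change of −2.56. Outside the list, 2 of 77 pseudogenes (2.60%) and 14 of 1785 protein-coding genes (0.784%) fell more than 4-fold. The 10 pseudogenes of the list held 0.319% of counts in rde-12 and 1.92% in N2, while the other 77 held 11.13% in rde-12 and 10.44% in N2.

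Pseudogenes outside the list gave 11 falls (14.3%, close to the 13.9% of all genes) and 17 rises (22.1%, beside 13.8%). F52G3.4 and F52G3.3, pseudogenes named from the same clone, moved in opposite directions. The first had 57.9 and 47.1 CPM in rde-12 and 131 and 119.8 CPM in N2 (2.37-fold lower), and the second 211 and 210.4 CPM in rde-12 and 171 and 185 CPM in N2 (log2 change 0.25, edgeR adjusted p = 0.0096). The rises were all at 0.38 or below on the log2 scale. AC8.7 and AC8.12, whose counts are identical in every library and so may be the same reads, had the same log2 change of 0.37. Both are among the 17 rises. Over all 87 pseudogenes the number of rises was 8 without rde-12 replicate 1 and 10 without N2 replicate 1. Of 5 long non-coding RNAs, 3 fell (60%, beside 13.9% of all genes), between 2.25-fold and 7.53-fold. C40A11.10, annotated as a microRNA locus and part of the ERGO-1 list, had 31.2 and 28.6 CPM in rde-12 and 72.2 and 75.4 CPM in N2, 2.46-fold lower.

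The 35 genes that fell more than 4-fold had a shorter median length, and in wild type a higher median density of small RNAs, than the other genes. The difference in density is partly fixed by the choice of genes with a large fall, and no test was made. Their median exonic length was 1023 bases against 1420 for the other genes tested. The median density was 40.5 CPM per kilobase in rde-12 and 407 in N2, against 88.3 in rde-12 and 93.2 in N2 for the other genes. By exon number, 3.32% of genes with 1 to 2 exons, 3.14% of those with 3 to 4, 1.19% of those with 5 to 8 and 0.835% of those with 9 or more fell over 4-fold. In 4 groups of near-equal size by mean level, falls numbered 75, 61, 71 and 61 from the lowest to the highest group, and rises 39, 40, 74 and 114. The median log2 change in the same order was −0.10, −0.04, −0.03 and 0.05, so small changes sit on an offset that varied with level.

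Loss of small RNAs did not always extend to the next gene. Genes were ordered along the chromosomes of the RefSeq WBcel235 table, and 10 of the 35 genes with falls over 4-fold had an adjacent gene in the count table. For 4 of these the neighbour was also lower (40%), against 67 of 458 over all genes with a measured neighbour (14.6%). The 4 are not separate loci, because ZK402.2 and ZK402.3 are each other's neighbour. The ZK402 genes fell together, with log2 changes of −2.71 for ZK402.2, −2.99 for ZK402.3 and −1.74 for ZK402.5, as did E01G4.5 (−3.36) and E01G4.7 (−1.64), and all of these are in the ERGO-1 list. Beside fbxa-61, its neighbour fbxa-63 (Y119D3B.7) had 19.2 and 17.2 CPM in rde-12 and 25.4 and 25.9 CPM in N2, 1.401-fold lower.

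Other adjacent genes did not pass the test. Next to B0001.5, the gene B0001.8 had 114.4 and 114.6 CPM in rde-12 and 106 and 104 CPM in N2, and B0001.3 had 535 and 488 CPM in rde-12 and 535 and 546 CPM in N2. Neither passed the test (edgeR adjusted p = 0.261 and 0.373), although eri-12 (B0001.6) and B0001.2, whose identifiers share that clone, fell 2.51-fold and 1.17-fold. The gene pll-1, beside gsto-3, had 3034 and 2755 CPM in rde-12 and 2972 and 2803 CPM in N2. For clp-4, beside rimb-1, the levels were 201 and 207 CPM in rde-12 and 208 and 205 CPM in N2. The sources used here do not give the strand that was counted, so small RNAs of overlapping or antisense genes cannot be told apart.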

How the data were processed

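Small RNA of whole young adults was cut from a gel at 20 to 26 nt, treated with TAP, which makes triphosphate ends ligatable, and sequenced from ScriptMiner libraries, per the labels' protocols. The submitters' processing notes name TopHat 1.4.1, bedtools and SAMtools. The authors deposited raw small RNA counts for each gene, as whole numbers. The sources used here do not give the genome build, annotation, strand, treatment of reads with several matches or choice of genes. Libraries from animals eating a sel-1 trigger were not analysed here. The table has 1959 rows. Of these, 22 repeat a gene and were counted once. Of the 1937 genes, 1900 matched a RefSeq table of assembly WBcel235, used for names and neighbours, and 1902 matched Ensembl's annotation, used for exons. Counts were identical in every library between 18 genes and another gene.

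Groups came from the sample labels. The quasi-likelihood test of edgeR 4.0.16 (R 4.3.3) was run per gene, with TMM factors of 0.987 to 1.03 and filterByExpr, which removed 6 genes. Benjamini-Hochberg adjustment ran over all 1931 genes left, with a threshold of 0.05. Values after ± beside a log2 change are standard errors and beside a level are SDs. Shares were compared by two-sided exact permutation tests. Alternatives used other factors, other filters, DESeq2 1.42.0, limma-voom (limma 3.58.1), robust fits, a replicate block and each library left out. Named genes are the 25 largest falls and 15 largest rises without overlap, the 10 most counted genes, the 8 largest absolute losses and 8 gains, and, for lists with 3 or more tested members, the 2 that changed most. Others were named after their values were seen. The comparison and the lists were chosen with earlier results of these data known. A planned naming of genes with similar proteins was not run.

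Chi-square per degree of freedom was above sampling noise between replicates (4.13 between rde-12 libraries and 3.50 between N2 libraries, against 101 to 130 between genotypes), so none was a repeat deposit. The biological coefficient of variation was 4.06%. Tested on simulated counts for this comparison over 1931 genes, the method recovered 84% of genes changed 1.25-fold, 98% at 1.5-fold, 98% at 2-fold and 100% at 4-fold, with 8 false calls among 198. The simulation gave every gene the same spread and changed as many genes up as down. It does not represent spread that differs between genes or large changes that are mostly falls, so these figures may be too favourable.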

Additional observations from a re-analysis of the deposited data

How the results depend on the processing

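Across all settings tried, 26 to 27 genes of the ERGO-1 list were lower in rde-12, and 5 to 9 genes rose over 2-fold. Genes lower in rde-12 numbered 268 with edgeR and 157 with DESeq2, and 175 to 304 when a library was left out. Genes higher numbered 165 to 308 with a library left out. Sperm genes lower numbered 3 with DESeq2 and 3 to 7 with a library left out. F-box genes higher numbered 14 with upper-quartile factors and 5 to 13 with a library left out, and pseudogenes higher numbered 8 to 19. The difference in the share of the 10 most abundant genes was 0.556 percentage points, 0.36 with TMM-scaled CPM and 0.485 to 0.627 with a library left out. Signs turned for 7 abundant genes that were never called in those settings. With library totals and upper-quartile factors, fkb-8 stood at 0.01 and 0.04 and Y62F5A.9 at 0.02 and 0.04 (log2). With a library left out, the ranges were −0.05 to 0.03 for fkb-8 and for Y62F5A.9, −0.01 to 0.07 for bath-20, −0.02 to 0.09 for F37H8.2, −0.01 to 0.06 for T01A4.3, −0.02 to 0.05 for Y71A12B.10 and 0.00 to 0.10 for frm-1. The cause was not tested. Of 1240 values for 83 named genes, 1181 kept direction and side of the threshold, and 34 lost a call. The replicate block gave 230 falls and 243 rises. The labels do not pair libraries of the same number, and their deviations correlated at −0.0203 across genes. Testing genes with identical counts once gave 265 falls and 271 rises, a setting chosen after seeing the data. The planned search for similar proteins was not run.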
